A study of Mus musculus with 6 samples.

Results

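The genes described here carry the step that switches integrins on. They are the kindlins Fermt3 and Fermt2, the talin Tln1, the small GTPases Rap1a and Rap1b with their effector Apbb1ip, the integrin-linked kinase complex genes Ilk, Lims1 and Parvg, and the tensin Tns1. These 10 genes were taken by symbol, not by a rule on their values, from the 24054 genes of the table. They were chosen with earlier results of these data known. The study sequenced RNA of mouse bone marrow-derived macrophages, grown from marrow over 7 days with L929-conditioned medium, and asked how the RNA of Kindlin-3 mutant cells differs from that of normal cells under oxLDL. oxLDL is oxidised low-density lipoprotein, which macrophages take up in the arterial wall. The 6 libraries were 2 from Kindlin3-integrin mutant cells left untreated, 2 from mutant cells given 50 µg/ml oxLDL for 24 hours, 1 from C57BL/6 wild-type cells left untreated and 1 from wild-type cells given the same oxLDL. The mutants are on the C57BL/6 background, and all cells of both genotypes had the same culture. The sample titles abbreviate the mutant as KI, and what the mutation changes in the gene or protein is not stated in the labels, so the level of Fermt3 RNA does not check the genotype labels.

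Integrins are adhesion receptors that sit on the cell surface in a low-affinity state. Talin, recruited by GTP-bound Rap1 through its effector RIAM (the product of Apbb1ip) or by direct binding, and kindlin bind the tail of the beta subunit and together raise its affinity. The integrin-linked kinase, PINCH and parvin proteins form a complex that kindlin joins and that links the tail to actin, while tensins bind the same tails at longer-lived adhesions. Kindlin-3 is the kindlin of blood cells, and its loss in people causes a leukocyte adhesion deficiency with bleeding.

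Levels are given as CPM, the reads of a gene relative to the reads of its library on the usual per-megaread scale, which the authors adjusted with the trimmed mean of M-values. The libraries held 11281659 to 24273497 assigned reads, and 3 reads, the number used as the limit that a count of 0 allows, were worth 0.122 to 0.263 CPM, which covers counting error only. The 9 macrophage markers were above 0 in each library and summed to 20660 to 30233 CPM in untreated and 10206 to 19563 CPM in oxLDL libraries. Lyz2 was the largest part of each sum, at 8910 to 20823 CPM in untreated and 5696 to 15234 CPM in oxLDL libraries, which overlapped. With oxLDL across genotypes 5 of the 9 markers fell, among them Emr1 (from 4394 to 6193 CPM to 818 to 1098 CPM), and 2 rose, Cd68 and Mertk. Markers of the macrophage itself thus moved with treatment as the adaptors below did. The 11 fibroblast markers summed to at most 6.52 CPM and the 7 lymphoid markers to at most 0.263 CPM. Markers of 3 other cell types also differed between libraries. Of 9 neutrophil markers, the 8 in the table summed to 39.5 CPM in untreated wild type, with none at 0, and to 0.701 to 2.24 CPM elsewhere. The 8 pancreas markers summed to 219 CPM in untreated wild type, 163 and 129 CPM in oxLDL-treated mutant cells and at most 0.0704 CPM in the others. The 6 endothelial markers summed to 68.3 to 104 CPM in untreated and 142 to 331 CPM in oxLDL libraries. Vwf and Kdr made up most of this sum except in untreated wild type, where Pecam1 stood at 52.4 CPM. Pecam1 was at 11.2 to 52.4 CPM in untreated and 0.734 to 2.18 CPM in oxLDL libraries, the other way from Vwf, while Cdh5 and Tek stayed at or under 0.634 CPM. The part of these RNAs in the results below was not tested. The labels do not say whether replicates are separate mice or cultures. The p-values therefore cover the spread among these libraries alone, which may be technical, and in bulk RNA fewer cells of a type and less RNA per cell cannot be told apart.

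Sequences for the genes on which the results turn come first. The coding sequences of Rap1a and Rap1b, each 555 bases in the GENCODE M21 mouse transcripts, are identical at 81.6% of bases, with 102 mismatches, and their longest identical run is 20 bases. No 75-base stretch of the Rap1b transcript was shared with another gene. The first 120 coding bases, 5′ to 3′, show how the mismatches, in capitals, are spread along this part of both genes.
Rap1a: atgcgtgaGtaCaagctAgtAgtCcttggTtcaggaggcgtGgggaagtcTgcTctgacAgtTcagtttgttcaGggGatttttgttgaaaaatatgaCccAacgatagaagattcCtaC
Rap1b: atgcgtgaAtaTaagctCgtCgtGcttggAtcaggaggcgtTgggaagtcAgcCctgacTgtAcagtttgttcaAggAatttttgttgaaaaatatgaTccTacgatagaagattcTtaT
Among the 75-base stretches of Rap1a, 5.27% occur in the gene model Gm9392 and none was shared with Rap1b.

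The promoters of 3 genes that fell with oxLDL and of the 1 that rose are shown next, as the 250 bases upstream of the RefSeq start on GRCm38.p6, each written 5′ to 3′ on the strand of its gene. Promoter windows were available for 9 of the 10 genes, and where transcription started in these cells was not measured. For Fermt3, Apbb1ip and Rap1b the bases just after the start occur in a GENCODE M21 coding transcript of the gene. For Tns1 they do not, so its start is less certain. Capitals mark matches, on either strand, to 9 motifs searched, which were GAGGAA (PU.1), CCGGAA (ETS), TGACTCA (AP-1), TGACNNNGC (antioxidant response), GGGCGG (Sp/KLF), the interferon response element (by name), TGACGTCA (cyclic AMP response), CACGTG (E-box) and the CArG box.
Fermt3, chr19:7019470-7019719, minus strand: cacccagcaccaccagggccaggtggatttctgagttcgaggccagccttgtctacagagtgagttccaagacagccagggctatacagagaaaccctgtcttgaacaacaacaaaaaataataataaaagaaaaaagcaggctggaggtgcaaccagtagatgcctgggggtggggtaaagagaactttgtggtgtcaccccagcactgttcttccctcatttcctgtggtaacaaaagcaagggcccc
Apbb1ip, chr2:22774077-22774326, plus strand: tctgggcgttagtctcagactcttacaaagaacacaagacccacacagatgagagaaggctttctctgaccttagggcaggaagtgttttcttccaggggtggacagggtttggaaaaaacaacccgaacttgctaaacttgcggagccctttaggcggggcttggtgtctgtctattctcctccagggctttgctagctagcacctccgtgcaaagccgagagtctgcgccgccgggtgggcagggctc
Rap1b, chr10:117845975-117846224, minus strand: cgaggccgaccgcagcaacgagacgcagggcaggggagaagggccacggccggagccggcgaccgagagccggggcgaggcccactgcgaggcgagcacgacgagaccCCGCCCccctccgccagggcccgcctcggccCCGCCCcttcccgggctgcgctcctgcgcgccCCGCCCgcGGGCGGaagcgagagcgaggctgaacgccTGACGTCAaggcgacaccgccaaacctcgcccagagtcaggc
Tns1, chr1:74124549-74124798, minus strand: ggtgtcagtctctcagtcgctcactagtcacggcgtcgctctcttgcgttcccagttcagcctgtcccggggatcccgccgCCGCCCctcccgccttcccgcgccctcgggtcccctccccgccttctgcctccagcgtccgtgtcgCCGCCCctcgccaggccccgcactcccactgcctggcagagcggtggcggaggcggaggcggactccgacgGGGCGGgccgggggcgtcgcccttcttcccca
The windows differ in base composition. Fermt3 has 1 CpG and 50.0% GC, and 7.87% of 32851 promoters of the same length have fewer CpG. Apbb1ip has 9 CpG, Rap1b 36 and Tns1 30, against a median of 6 over those promoters. The windows of Fermt3 and Apbb1ip hold none of the letters searched. Rap1b holds 4 matches to GGGCGG and 1 to TGACGTCA at 42 bases before the start, and Tns1 holds 3 matches to GGGCGG. Among the 32851 promoters 32.7% hold GGGCGG and 1.55% hold TGACGTCA. The Fermt2 window has 76.0% GC and 31 CpG, so the expressed and the barely detected kindlin differ in this respect.

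With oxLDL, most of the tested adaptor genes were lower. Across genotypes, 7 of the 9 genes that could be tested fell, Tns1 rose and Parvg did not pass the test. Apbb1ip fell 3.31-fold, Rap1b 2.66-fold and Fermt3 1.80-fold, and Tns1 rose 3.46-fold. Of all 12689 genes tested, 40.5% were called in this comparison, 19.1% higher and 21.4% lower, and the median log2 fold change of the 9 genes was -0.44 against 0.01 over all genes. Genes were called at a false discovery rate under 0.05 in edgeR's quasi-likelihood test, which underlies each adjusted p below. Fermt2 had too few reads to be tested.

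**Figure D1:**
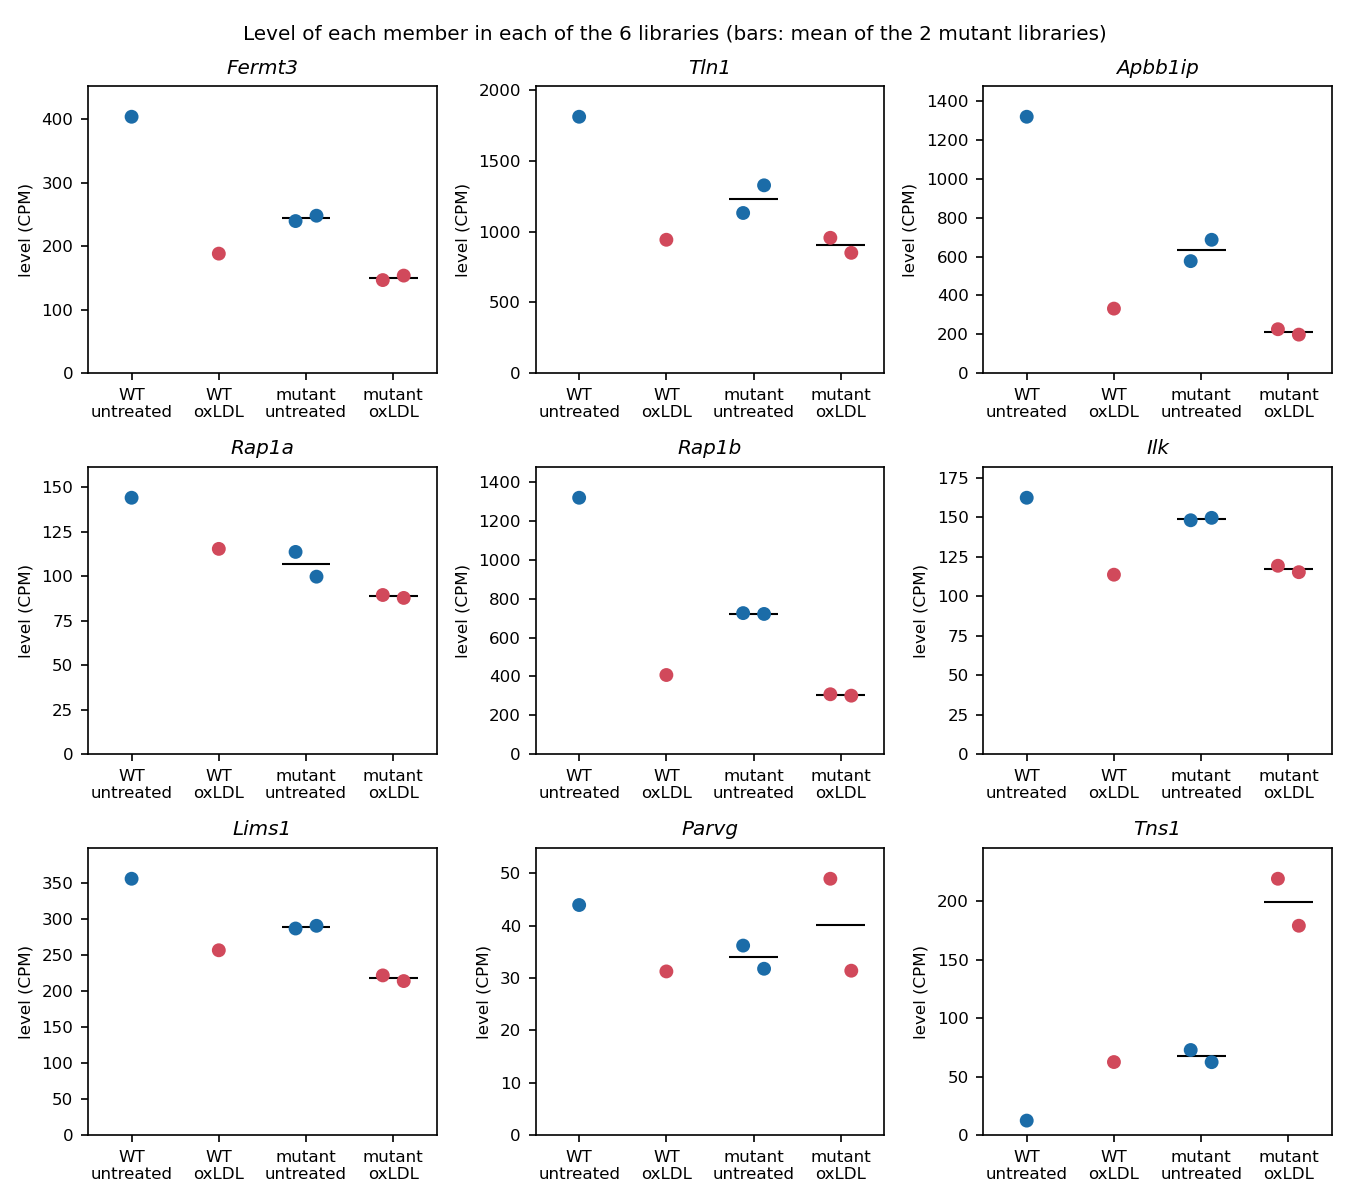
Normalised level (CPM, linear axes from 0) of the 9 tested genes by genotype and treatment, 1 point per library, blue untreated and red oxLDL, with a bar at the mean of each mutant pair. Untreated wild type is the highest library for 7 of the 9 genes and the lowest for Tns1.

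Fermt3 encodes Kindlin-3. It stood at 239 and 248 CPM in untreated mutant cells, 146 and 153 CPM in oxLDL-treated mutant cells, 404 CPM in untreated wild type and 188 CPM in oxLDL-treated wild type. The 3 oxLDL libraries all lay below the 3 untreated ones, and untreated wild type was far above the rest. The log2 fold change with oxLDL across genotypes was -0.84 ± 0.10 (SE, n = 3 against 3 libraries, adjusted p = 0.00147), and within the mutant -0.71 ± 0.089 (SE, n = 2 against 2, adjusted p = 0.00267, edgeR). Fermt2, which encodes the kindlin of most other tissues, gave 5 and 0 reads in untreated mutant libraries and 1 read in each of the other 4, at most 0.438 CPM. Fermt1, the epithelial kindlin, had at most 0.0640 CPM. Scaled by transcript length, Fermt2 made up at most 0.144% of Fermt2 plus Fermt3 in any library, so the kindlin RNA of these cells was nearly all Fermt3.

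Tln1 encodes talin-1, the rod-shaped adaptor whose head opens the integrin. It stood at 1133 and 1329 CPM in untreated mutant, 957 and 851 CPM in oxLDL-treated mutant, 1814 CPM in untreated wild type and 943 CPM in oxLDL-treated wild type. The oxLDL libraries lay below the untreated ones without overlap. The log2 fold change across genotypes was -0.62 ± 0.15 (SE, adjusted p = 0.0160, edgeR), a call that ended without the untreated mutant replicate 2 (adjusted p = 0.0722) or without oxLDL-treated wild type (adjusted p = 0.0536). Within the mutant the change was -0.46 ± 0.14 (SE, adjusted p = 0.0521, edgeR) and did not pass, but it did with DESeq2's size factors (adjusted p = 0.0482), DESeq2's Wald test (adjusted p = 0.00398), no low-count filter (adjusted p = 0.0183), the mutant libraries alone (adjusted p = 0.0498) and without untreated wild type (adjusted p = 0.0491). Tln2, the other talin, made up at most 0.176% of talin RNA per length.

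Apbb1ip encodes RIAM, which binds Rap1 and brings talin to the membrane. It stood at 576 and 686 CPM in untreated mutant, 226 and 198 CPM in oxLDL-treated mutant, 1320.0 CPM in untreated wild type and 332 CPM in oxLDL-treated wild type. The highest oxLDL library was thus below the lowest untreated one, and the range from wild type untreated to mutant oxLDL was the widest among the genes that fell. The log2 fold change was -1.72 ± 0.14 across genotypes (SE, adjusted p = 0.000286, edgeR) and -1.59 ± 0.14 within the mutant (SE, adjusted p = 0.000874, edgeR).

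Rap1b and Rap1a encode near-identical GTPases, of which Rap1b is known as the main form in platelets. Rap1b stood at 726 and 722 CPM in untreated mutant, 308 and 301 CPM in oxLDL-treated mutant, 1321 CPM in untreated wild type and 407 CPM in oxLDL-treated wild type. The mutant pairs were tight and every oxLDL library lay below every untreated one. Its log2 fold change was -1.41 ± 0.12 across genotypes (SE, adjusted p = 0.000361, edgeR). Rap1a stood at 114 and 99.6 CPM in untreated mutant, 89.3 and 87.7 CPM in oxLDL-treated mutant, 144 CPM in untreated wild type and 115 CPM in oxLDL-treated wild type. Here the treatments overlapped, since oxLDL-treated wild type lay above both untreated mutant libraries. The change of Rap1a was -0.30 ± 0.083 (SE, adjusted p = 0.0300, edgeR), and that call was lost with any 1 of 5 libraries left out, with adjusted p up to 0.120, and held without the untreated mutant replicate 2 (adjusted p = 0.0357).

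Rap1a made up more of the Rap1 RNA in the oxLDL libraries. Scaled by transcript length, Rap1a was 15.03% and 13.5% of Rap1a plus Rap1b in untreated mutant libraries, 24.7% and 24.8% in oxLDL-treated mutant libraries, 10.98% in untreated wild type and 24.3% in oxLDL-treated wild type. The treated values lay within a narrow range and above each untreated value. In a two-sided exact permutation test of 3 against 3 libraries p was 0.1, the smallest this design allows, and 0.1 after Benjamini-Hochberg adjustment over the 3 shares tested. The shares of Fermt2 with Fermt3 and of Tln2 with Tln1, which overlapped between treatments, were not tested. The 3 shares tested were thus those without overlap, for which p could only be 0.1. The test therefore adds nothing to the ranges, and its adjustment leaves out the untested shares.

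Ilk, Lims1 and Parvg encode the integrin-linked kinase, PINCH-1 and gamma-parvin, the parvin of blood cells. Ilk stood at 148 and 149.8 CPM in untreated mutant, 119 and 115 CPM in oxLDL-treated mutant, 163 CPM in untreated wild type and 114 CPM in oxLDL-treated wild type. Lims1 stood at 287 and 291 CPM in untreated mutant, 222 and 214 CPM in oxLDL-treated mutant, 356 CPM in untreated wild type and 257 CPM in oxLDL-treated wild type. For both genes the oxLDL libraries lay below the untreated ones, by less than for Rap1b or Apbb1ip. The log2 fold change was -0.41 ± 0.076 for Ilk (SE, adjusted p = 0.00648, edgeR) and -0.44 ± 0.075 for Lims1 (SE, adjusted p = 0.00475, edgeR). Ilk is uncertain, because 53.8% of its 75-base stretches also occur in other genes, 43.1% in Taf10. Only 5.75% of all Ilk stretches occur in another gene on the same strand, and no source used here says whether the counting used strand.

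Parvg stood at 36.2 and 31.8 CPM in untreated mutant, 48.9 and 31.4 CPM in oxLDL-treated mutant, 43.9 CPM in untreated wild type and 31.2 CPM in oxLDL-treated wild type. The treated mutant libraries were far apart, and the treatments overlapped. Within the mutant it passed without oxLDL-treated replicate 2 (log2 fold change 0.52, adjusted p = 0.0365, edgeR) and not with all libraries (0.23, adjusted p = 0.452). Across genotypes its log2 fold change with oxLDL was -0.01 with a 95% interval of -0.54 to 0.51 (adjusted p = 0.975, edgeR), which leaves room for a change of the size seen for Ilk or Lims1. Parvb, which encodes beta-parvin, stood at 50.6 and 52.7 CPM in untreated mutant, 91.1 and 95.2 CPM in oxLDL-treated mutant, 31.2 CPM in untreated wild type and 75.4 CPM in oxLDL-treated wild type. Parvb rose, by 0.98 ± 0.11 (log2, SE, adjusted p = 0.00111, edgeR). Per transcript length its share of Parvb plus Parvg was 33.6% to 54.2% in untreated and 57.0% to 68.4% in oxLDL libraries. The exact permutation test gave two-sided p = 0.1, adjusted 0.1, the smallest that 3 against 3 libraries allow. Parva, the third parvin, had at most 2 reads in a library.

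Tns1 encodes tensin-1, which binds integrin tails and actin at mature adhesions. It stood at 72.8 and 62.4 CPM in untreated mutant, 219 and 179 CPM in oxLDL-treated mutant, 12.3 CPM in untreated wild type and 62.5 CPM in oxLDL-treated wild type. Within each genotype the oxLDL libraries were higher, and oxLDL-treated wild type fell between the untreated mutant libraries, so the treatments overlapped when genotype was set aside. The log2 fold change was 1.79 ± 0.19 across genotypes (SE, adjusted p = 0.000772, edgeR) and 1.55 ± 0.14 within the mutant (SE, adjusted p = 0.00100, edgeR). Tns3, the more abundant tensin, stood between 703 and 844 CPM in the 6 libraries. The share of Tns1 in Tns1 plus Tns3, per transcript length, was 1.30% to 6.08% in untreated and 6.16% to 18.3% in oxLDL libraries. The ranges nearly met because of untreated mutant and oxLDL-treated wild type. The exact permutation test again gave two-sided p = 0.1, adjusted 0.1, the smallest that 3 against 3 libraries allow.

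**Figure D2:**
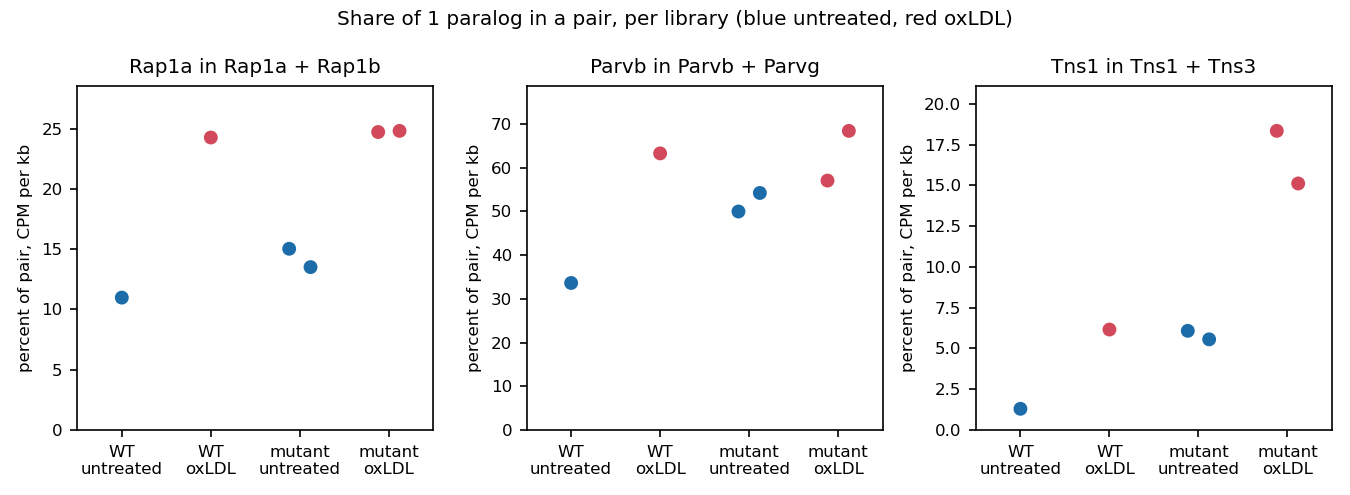
Share (percent, CPM per kilobase of transcript) of 1 paralog within its pair by genotype and treatment, 1 point per library, blue untreated and red oxLDL. Each oxLDL library lies above each untreated one in all 3 panels, by the least for Tns1 (6.16% against 6.08%). The shares of Tln2 in Tln2 plus Tln1 and of Fermt2 in Fermt2 plus Fermt3, not shown, overlapped between treatments.

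Of the 9 tested genes, 6 had all oxLDL libraries below all untreated ones and none had them above, where 47.8% of all genes tested did not overlap, 22.8% lower and 25% higher. The oxLDL calls of Fermt3, Apbb1ip, Rap1b, Ilk, Lims1 and Tns1 across genotypes held in each alternative tried, with adjusted p up to 0.0279. Within the mutant 5 genes fell and 1 rose, against 35.6% of all genes called, 16.5% higher and 19.1% lower. There the call of Ilk ended without any 1 of the 4 mutant libraries (adjusted p = 0.0668 to 0.116), and that of Lims1 without replicate 2 of either treatment (adjusted p = 0.0585 and 0.0843). In wild type, with 1 library per arm and no replicate check, Apbb1ip was 3.98-fold, Rap1b 3.25-fold and Fermt3 2.15-fold lower, and Tns1 5.02-fold higher, while the other 5 tested genes moved by less than 2-fold. By that size, 19.6% of 9840 genes of at least 5 CPM in either library changed in wild type, 7.92% higher and 11.7% lower. Untreated wild type was the highest of the 6 libraries for 7 of the 9 genes (26.2% of all genes) and the lowest for 1, Tns1 (22.2% of all genes). These comparisons share libraries and are not independent of each other.

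**Figure D3:**
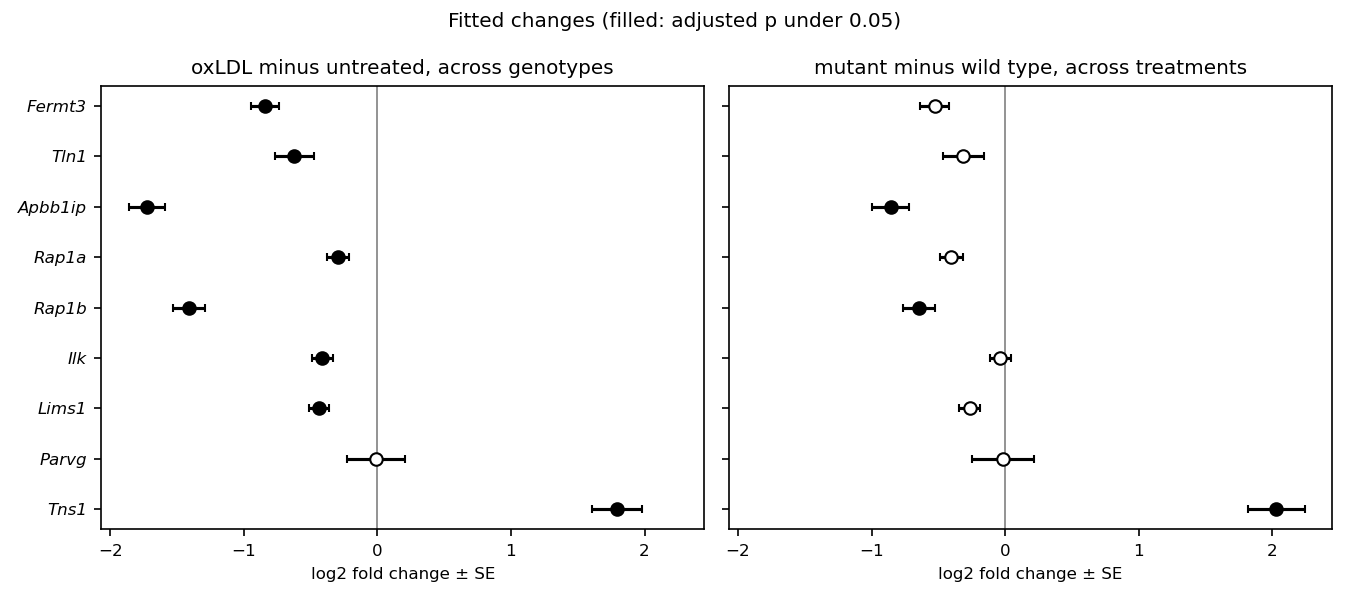
Log2 fold change ± SE of the 9 tested genes, on the left oxLDL minus untreated across genotypes and on the right mutant minus wild type across treatments, with filled points for an adjusted p under 0.05. In both panels Apbb1ip lies farthest to the lower side, followed by Rap1b, and Tns1 farthest to the higher side.

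Between genotypes, the RIAM, Rap1b and tensin-1 genes differed. With treatment held, mutant cells had lower Apbb1ip (1.81-fold) and Rap1b (1.56-fold) and higher Tns1 (4.08-fold), that is 3 of 9 genes called, against 4.05% of all genes, 2.54% higher and 1.51% lower. The log2 differences, mutant minus wild type, were -0.86 ± 0.14 for Apbb1ip (SE, n = 4 against 2 libraries, adjusted p = 0.0344), -0.65 ± 0.12 for Rap1b (SE, adjusted p = 0.0447) and 2.03 ± 0.21 for Tns1 (SE, adjusted p = 0.0157, edgeR). Fermt3 itself was at -0.53 ± 0.11 (SE, adjusted p = 0.0517, edgeR) and Rap1a at -0.40 ± 0.087 (SE, adjusted p = 0.0556, edgeR), both short of the threshold, while Rap1a was the only gene of the 9 whose mutant libraries all lay below both wild-type libraries. Of all genes 16.3% did not overlap between genotypes, 8.35% higher and 7.93% lower. Ilk, at -0.04 with a 95% interval of -0.23 to 0.16, Lims1, Tln1 and Parvg did not pass.

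These genotype calls rested on few libraries. Without untreated wild type, the library with the most neutrophil and pancreas marker RNA, Apbb1ip and Rap1b were no longer called. The log2 difference was then -0.65 for Apbb1ip, -0.42 for Rap1b, -0.32 for Fermt3 and 1.68 for Tns1. The part of that marker RNA in these changes was not tested. Apbb1ip also lost its call without either untreated mutant library (adjusted p = 0.0871 and 0.128), Rap1b without any of the 4 mutant libraries (adjusted p = 0.0573 to 0.151) and Tns1 without the untreated mutant replicate 2 (adjusted p = 0.0887). Without oxLDL-treated wild type the log2 difference of Fermt3 was -0.72. That difference rests on untreated cells alone, so it repeats the comparison given next and is no separate result. The same holds without untreated wild type for oxLDL-treated cells. With all libraries, DESeq2's Wald test called Fermt3 (adjusted p = 0.00108) and Rap1a (adjusted p = 0.00320). So did edgeR with no low-count filter (adjusted p = 0.0114 and 0.0319).

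In untreated cells alone, Fermt3, Apbb1ip and Rap1b were lower in the mutant and Tns1 was higher, 4 of 9 genes where 7.06% of all genes were called, 4.24% higher and 2.82% lower. The log2 difference was -0.72 ± 0.11 for Fermt3 (SE, n = 2 against 1 library, adjusted p = 0.0264), -1.05 ± 0.16 for Apbb1ip (SE, adjusted p = 0.0283), -0.86 ± 0.12 for Rap1b (SE, adjusted p = 0.0245) and 2.46 ± 0.20 for Tns1 (SE, adjusted p = 0.00801, edgeR), in a fit that assumes the single wild-type library varies like the mutant pairs. Leaving out untreated mutant replicate 1 ended the calls of Fermt3, Apbb1ip and Rap1b, and leaving out replicate 2 those of Fermt3 and Rap1b (adjusted p = 0.0579 to 0.0916). In oxLDL-treated cells Tns1 alone was called, at 1.67 ± 0.18 (SE, adjusted p = 0.0377, edgeR), where 0.481% of all genes were, 0.299% higher and 0.181% lower, and the call ended without either untreated mutant library (adjusted p = 0.0662 and 0.0603). There the values were -0.33 ± 0.11 for Fermt3, -0.65 ± 0.16 for Apbb1ip and -0.42 ± 0.12 for Rap1b (SE), none of which passed.

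Whether the oxLDL response itself differed between genotypes was tested by the interaction term. No gene of the 9 was called by edgeR or by DESeq2, where edgeR called 0.489% of all genes (0.189% higher, 0.299% lower), and 3 had an unadjusted p under 0.05. The difference, mutant minus wild-type response, was 0.39 ± 0.15 for Fermt3 (SE, adjusted p = 0.441), 0.43 ± 0.18 for Rap1b (SE, adjusted p = 0.455) and -0.79 ± 0.25 for Tns1 (SE, adjusted p = 0.340, edgeR). Their 95% intervals, 0.01 to 0.77 for Fermt3 and -1.40 to -0.18 for Tns1, do not show that the genotypes responded alike. The 8 pancreas markers, with RNA in untreated wild type and both oxLDL-treated mutant libraries, had a median log2 difference of 21.1 in this term. The shares of all genes called here and between genotypes in oxLDL-treated cells therefore include them. The part of this RNA in the values above was not tested.

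Levels can be set against each other only per length. Divided by the longest coding transcript of each gene in kilobases, the mean over the 6 libraries was 232 CPM per kilobase for Rap1b, 201 for Apbb1ip, 139.5 for Tln1, 88.8 for Fermt3, 75.1 for Ilk, 62.6 for Lims1, 45.0 for Rap1a, 13.8 for Parvg, 10.2 for Tns1 and 0.0326 for Fermt2. Neighbours in this order were not all apart. Rap1b lay above Apbb1ip in all 6 libraries, but Tln1 exceeded Apbb1ip in both oxLDL-treated mutant libraries, Ilk exceeded Fermt3 in the same 2, and Parvg and Tns1 changed places. The order depends on the length used, since by coding length Lims1 and Rap1a rank 3 and 4, above Tln1 and Fermt3.

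Around these 10 genes stand other genes of integrin activation, given here as a list of 65 of which 57 were tested. With oxLDL across genotypes 8 rose and 25 fell, where 19.1% of all genes were called higher and 21.4% lower, with a median log2 fold change of -0.34. By role, 8 of 17 exchange factors and GTPase-activating proteins of Rap1 fell and 3 rose, and 6 of 8 inhibitors of integrin activation fell and 1 rose. Of 18 partners of kindlin, talin and the kinase complex 6 fell, 1 rose and 11 were not called. The share called in that role was near the 40.5% over all genes. Among 8 further Rap1 partners 4 fell and 1 rose, and among 6 paralogs 1 fell and 2 rose. Of 14 integrin subunits, counted apart from the list, 9 fell and 1 rose. Between genotypes, with treatment held, 1 gene of the 57 was higher and 2 were lower, a share near the 4.05% of all genes called (2.54% higher, 1.51% lower).

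The 4 genes that fell with the smallest p in the list came from several of these roles. Rapgef5, an exchange factor that loads Rap1 with GTP, was at 243 and 291 CPM in untreated mutant, 64.4 and 76.2 CPM in oxLDL-treated mutant, 397 CPM in untreated wild type and 83.4 CPM in oxLDL-treated wild type (log2 fold change -2.04 ± 0.13, SE, adjusted p = 0.000148, edgeR). Fyb, whose product ADAP binds the SKAP adaptors that hold RIAM, went from 2157 to 2813 CPM in untreated libraries to 544 to 936 CPM in treated ones (-1.90 ± 0.14, SE). Vasp, an actin regulator that binds RIAM, went from 215 to 400.0 CPM to 49.8 to 60.0 CPM (-2.43 ± 0.19, SE). Rap1gap2, which returns Rap1 to its GDP form, went from 9.55 to 19.0 CPM to 0.978 to 1.44 CPM (-3.61 ± 0.30, SE). Thus an activator and an inactivator of Rap1 both fell. Of the 8 genes that rose, the 4 with the smallest p were Parvb, given above, Raph1, the lamellipodin relative of RIAM (1.07 ± 0.16, SE), Rasa3, a GTPase-activating protein for Ras and Rap1 (0.78 ± 0.10, SE), and Rapgef3, the cyclic AMP-gated exchange factor EPAC1 (1.16 ± 0.21, SE). Levels were 69.4 to 105 CPM in untreated and 165 to 193 CPM in treated libraries for Raph1, and 103 to 130.1 CPM and 177 to 228 CPM for Rasa3, with no overlap for either. Rapgef3 was low, at 3.12 to 5.43 CPM in untreated and 5.63 to 12.4 CPM in treated libraries, so its ranges nearly met.

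**Figure D4:**
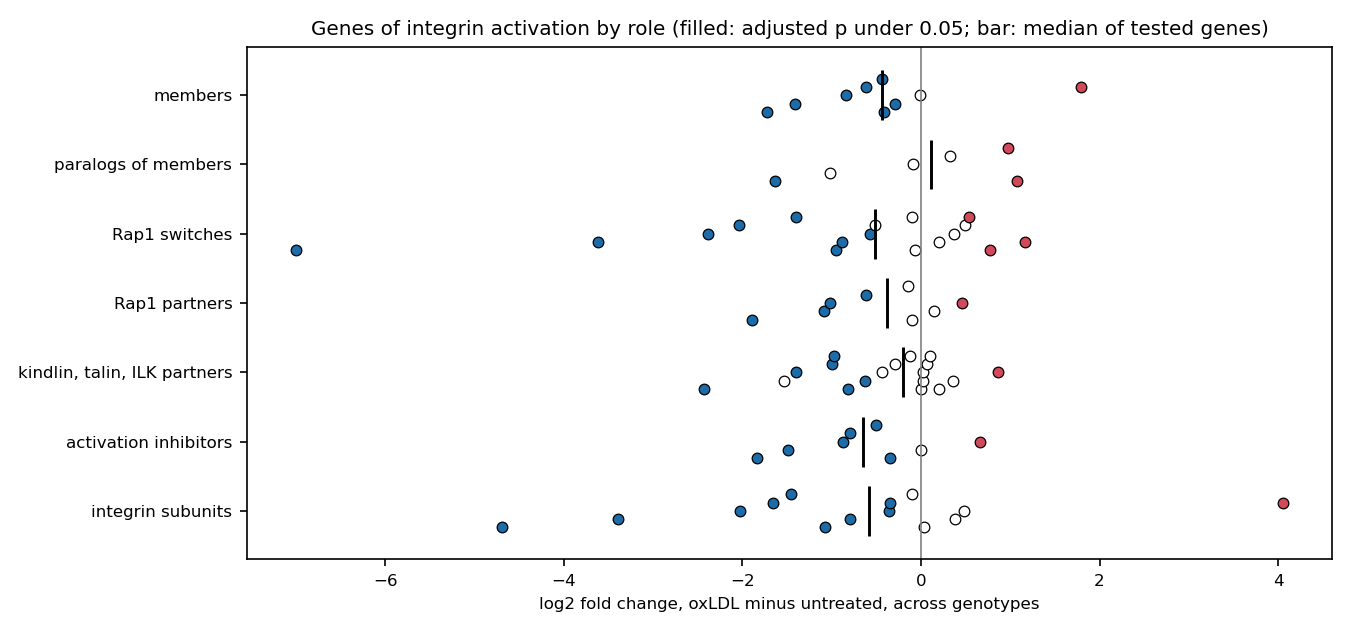
Log2 fold change with oxLDL across genotypes, 1 point per tested gene, in rows for the 9 tested adaptors (members), the roles of the list and the integrin subunits, with a bar at the median of each row and filled points for an adjusted p under 0.05 (blue lower, red higher). Inhibitors of integrin activation and integrin subunits have medians of -0.65 and -0.58, and the paralogs 0.12.

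The 3 list genes called between genotypes were Mllt4, which encodes the Rap1 effector afadin, and Evl and Rassf2. Mllt4 was higher in the mutant, at 135 and 131 CPM untreated and 189 and 167 CPM with oxLDL against 88.5 and 131 CPM in wild type (log2 difference 0.51 ± 0.094, SE, adjusted p = 0.0437, edgeR). Evl, a relative of Vasp, was lower, at 133 and 111 CPM untreated and 62.0 and 53.3 CPM with oxLDL against 182 and 109 CPM (-0.74 ± 0.13, SE, adjusted p = 0.0382, edgeR). Rassf2 was lower at 187 and 195 CPM untreated and 93.4 and 110.0 CPM with oxLDL against 325 and 141 CPM (-0.62 ± 0.11, SE, adjusted p = 0.0398, edgeR). For each of these 3 genes the mutant and wild-type libraries overlapped when treatment was set aside.

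Among 6809 other genes of at least 20 CPM, those whose pattern over the 6 libraries lay nearest that of Fermt3, by the root mean square difference of log2 CPM after centring each gene on its mean, were Pik3cd (0.0408), Arap1 (0.0501), Coro1b (0.0536), Csk (0.0556) and Tet3 (0.0563). Pik3cd, which encodes the leukocyte catalytic subunit of phosphoinositide 3-kinase, was at 104 and 102 CPM in untreated mutant, 64.5 and 65.6 CPM in oxLDL-treated mutant, 164 CPM in untreated wild type and 80.5 CPM in oxLDL-treated wild type. That it has the same order of groups as Fermt3 follows from how it was picked. Of the other adaptors Tln1 came nearest, at place 190 with a difference of 0.174, and Tns1 stood at place 6731.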

How the data were processed

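Polyadenylated RNA of 6 samples was sequenced as paired ends from a stranded kit, per the labels' protocols. The submitters' processing notes name Bowtie2 2.1.0 and RSEM 1.2.15. They also name the human build hg19 although the gene symbols are those of mouse, so the true build remains not given in the sources at hand. Expected counts from RSEM, which can hold fractions, were deposited by the authors. They also deposited a normalised signal, made with edgeR per the submitters' processing notes, printed here as CPM. All its values (100% at a tolerance of 1e-06) were whole multiples of 1 read, and in every library at least 99.89% of genes gave the same reads as the rounded expected counts. The count test on these recovered reads called 5134 genes for oxLDL across genotypes.

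Expected counts were rounded. Of 17143 genes with a count, 12689 passed filterByExpr. The test was edgeR 4.0.16's quasi-likelihood F-test (R 4.3.3) with TMM factors and Benjamini-Hochberg adjustment over all genes tested. The additive genotype and treatment model gave the comparisons across the other factor, and a model of 4 group means the rest. SE is the log2 fold change divided by the root of its F statistic. Wild type alone was described by size (at least 5 CPM, 2-fold, prior count 2). The code was tested on simulated data. Lengths and shared 75-base stretches came from GENCODE M21 transcripts, and promoters from RefSeq. Alternatives were DESeq2 1.42.0, its size factors, no low-count filter, each library left out, a replicate block and, chosen after seeing the data, recovered reads and coding lengths.

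The text names all 10 genes, up to 4 list genes per direction with the smallest p in oxLDL across genotypes and in genotype across treatments, and the 5 genes nearest Fermt3. The paralogs and marker genes named beside them were chosen after their values were seen. The 10 genes and the lists were chosen with earlier results of these data known. The dendritic (1.67 to 5.94 CPM) and megakaryocyte markers (16.5 to 34.1 CPM, mostly Pf4) were low in each library.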

Additional observations from a re-analysis of the deposited data

How the results depend on the processing

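Leaving out 1 library at a time changed the number of the 9 tested genes called to between 6 and 7 for oxLDL across genotypes (8 with all libraries), 4 and 7 for oxLDL in the mutant (6), 0 and 4 for genotype across treatments (3), 1 and 4 for genotype in untreated cells (4) and 0 and 1 for genotype in oxLDL-treated cells (1). DESeq2's Wald test called 6 genes for genotype across treatments and 2 in oxLDL-treated cells, and no low-count filter 5 and 2. The log2 difference took both signs when libraries were left out for Parvg (-0.36 to 0.37 for genotype across treatments, -0.28 to 0.23 for oxLDL across genotypes, -0.13 to 0.52 for oxLDL in the mutant), Ilk (-0.12 to 0.048, genotype across treatments), Tln1 (-0.15 to 0.025, genotype in oxLDL-treated cells) and Rap1a (-0.041 to 0.16, interaction). The only call among these was that of Parvg for oxLDL in the mutant without oxLDL-treated mutant replicate 2 (adjusted p = 0.0365, edgeR). The cause was not tested. Over all genes, calls for genotype across treatments went from 514 to 1500 with DESeq2, 1387 without the filter and 8 to 877 with a library left out. Those in untreated cells went from 896 to 2435 without the filter and 80 to 1822, those in oxLDL-treated cells from 61 to 393, 974 and 5 to 473, those of the interaction from 62 to 221, 546 and 19 to 246, and those for oxLDL in the mutant from 4515 to as few as 2626. Untreated and oxLDL libraries share replicate numbers in the mutant and in wild type, and the main tests did not pair them. Deviations of same-numbered mutant libraries correlated at 0.248 over 12689 genes. Wild type, with 1 library per arm, gives no such deviation. With fewer than 3 such mutant pairs, same-numbered libraries count as sharing only a number. With a replicate block 8 genes were called for oxLDL across genotypes (4765 of all genes) and 7 for oxLDL in the mutant (4915), where Tln1 passed (adjusted p = 0.0456, edgeR). Depth limits Fermt2, whose 0 to 5 reads per library were too few to test.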
